A study of Mus musculus with 6 samples.

Results

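The genes described here are the 10 named for the late life of the cartilage cell, the hypertrophic and terminal chondrocyte genes Col10a1, Panx3, Mef2c, Mmp13, Vegfa, Runx2, Runx3, Mef2d, Entpd1 and Scin. They were taken by symbol from 43496 gene entries, and each symbol matched 1 entry. The tissue was the cranial base, the cartilage on which the brain rests, taken from mouse embryos at E15.5 (days of gestation) for RNA sequencing. The 3 mutant embryos carried an allele of Memo1 made with the chemical mutagen ENU, and the 3 control embryos had no further genotype in the labels. All 6 embryos were of the C57BL/6J strain, and 1 library was made from each. The sources used here do not give the base change of the allele or the number of mutant copies. Levels are in FPKM (fragments per kilobase of transcript, scaled for the number of fragments in the library), so that those of different genes can be set side by side.

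In cartilage that turns to bone, chondrocytes stop dividing, swell and lay down collagen X. The transcription factors RUNX2, RUNX3, MEF2C and MEF2D drive this hypertrophic step. The terminal cells at the front of bone formation then cut the matrix with the collagenase MMP13 and call in blood vessels with VEGFA. In the cranial base this happens in the synchondroses, the growth cartilages between the skull base bones. Osteoblasts, the bone-forming cells, also make Mmp13, Runx2 and Panx3, and muscle and endothelium also make Mef2c.

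Among the early genes, Col10a1 and Panx3 overlapped between mutant and control embryos and Mef2c was lower in every mutant. Of the terminal genes, Mmp13 fell to about 1 FPKM where it could be measured, against 19.0 to 33.3 FPKM in the controls. Vegfa, the other terminal gene, lay above every control in every mutant. Of all tested entries 20.9% were without overlap, 11.9% lower and 8.98% higher, and neither Mef2c nor Vegfa was called in any fit below. The upstream DNA of these genes is shown first, with Mmp13 as the gene with the lowest values in mutants, Col10a1 as the early gene with the highest level, and Vegfa as the terminal gene on the other side of 0. The sequences are the 250 bases before the RefSeq start site, 5′ to 3′ on the gene's strand, in the build GRCm38.p6, and the capitals mark the RUNX motif ACCACA and the AP-1 motif TGANTCA on either strand. No capitals stand in Col10a1 or Vegfa, since neither motif has a match there.
Mmp13, chr9:7272264-7272513, + strand: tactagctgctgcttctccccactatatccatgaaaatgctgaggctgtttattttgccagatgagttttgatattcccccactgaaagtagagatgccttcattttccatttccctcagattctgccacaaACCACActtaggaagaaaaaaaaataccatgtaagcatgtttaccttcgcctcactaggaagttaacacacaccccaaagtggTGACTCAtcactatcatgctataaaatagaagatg
Col10a1, chr10:34389731-34389980, + strand: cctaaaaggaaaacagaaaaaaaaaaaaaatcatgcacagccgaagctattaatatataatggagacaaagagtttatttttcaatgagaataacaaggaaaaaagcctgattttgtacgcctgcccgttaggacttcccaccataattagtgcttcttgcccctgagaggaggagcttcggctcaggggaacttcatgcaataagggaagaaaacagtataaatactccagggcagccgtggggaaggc
Vegfa, chr17:46032378-46032627, - strand, the first of 2 RefSeq start sites: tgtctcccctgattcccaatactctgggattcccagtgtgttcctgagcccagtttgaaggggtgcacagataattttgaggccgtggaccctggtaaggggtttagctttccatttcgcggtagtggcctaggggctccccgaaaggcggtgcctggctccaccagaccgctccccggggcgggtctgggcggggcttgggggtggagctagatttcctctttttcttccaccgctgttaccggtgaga

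RefSeq gave start sites for 9 of the 10 genes, Panx3 being the other. Mmp13 held a RUNX match at -118, counted from the start site to the first base of the match, and an AP-1 match, TGACTCA, at -35. The motifs did not overlap. Of 32851 RefSeq windows of 250 bases, 14.0% held the RUNX motif and 6.75% the AP-1 motif. Among the other genes, a RUNX match lay at -80 in Runx2 and at -134 and -126 in the first Runx3 window, and an AP-1 match, TGAATCA, lay at -137 in the third Mef2c window. The MEF2 motif, which 3.20% of the windows held, had no match in any window of the 9 genes. The hypoxia response element ACGTG, held by 16.6% of the windows, had a match at -211 in the second Vegfa window. These matches describe the letters of these windows only.

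The libraries were not alike. The steps between the lowest values put mutants 2 and 3 at 117% and 152% and controls 2 and 3 at 80.2% and 93.4% of the depth of control 1, and no depth could be read for mutant 1. Mutant 1 listed 30811 entries at 0, against 19787 to 20594 in the other 5 libraries. Of entries between 1 and 1.5 FPKM in both other mutants 71.1% were listed at 0 in mutant 1, as were 25.6% of those between 4 and 7 FPKM and 3.77% of those between 20 and 50 FPKM. Among 4473 entries with a mean of 20 to 110 FPKM, 25.1% were off by at least 2-fold in mutant 1 from the mean of the other 2 mutants, as were 7.42% in mutant 2 and 7.91% in mutant 3, each set against a mean that includes mutant 1, against 0.291% to 0.447% when each control was set against the other 2 controls. Memo1 was 25.4, 20.1 and 22.2 FPKM in the mutants and 19.1, 23.1 and 21.9 FPKM in the controls, which does not check the labels, since an ENU allele need not change the RNA level. By Xist, the RNA of the silenced X chromosome, mutant 3 was the only female (113.6 FPKM, the other 5 at or below 0.0942 FPKM). Cartilage markers were abundant in every embryo: Col2a1, the main cartilage collagen, was 2660, 2482 and 2315 FPKM in the mutants and 1570, 1764 and 2207 FPKM in the controls.

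**Figure D1:**
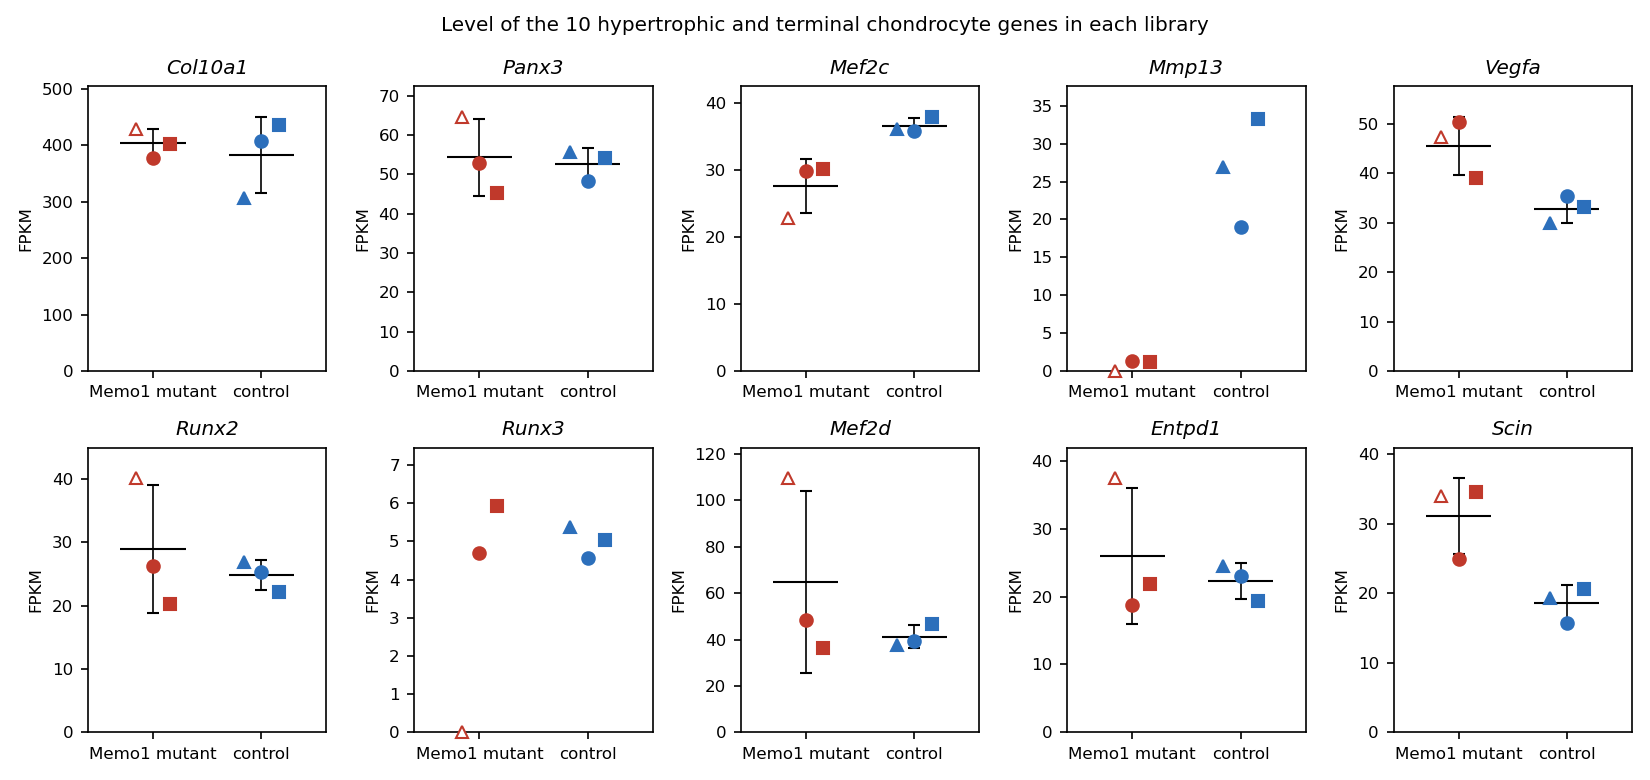
FPKM of the 10 genes in each library (vertical axes, linear, from 0), Memo1 mutants in red on the left and controls in blue on the right; triangle, circle and square are embryos 1, 2 and 3 of a group, numbers that pair nothing, and the open triangle is mutant 1. Bars are the mean ± SD of 3 embryos, left out for the mutants and controls of Mmp13 and Runx3, which were listed at 0 in mutant 1. The mutants lie apart from the controls in the panels of Mmp13, Mef2c, Vegfa and Scin.

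Differences were tested with limma on log2(FPKM + 1) over 15710 entries with a mean of at least 1 FPKM, and a gene was called at a Benjamini-Hochberg adjusted p under 0.05. All 10 genes passed the filter on low values. With all 6 libraries counted equally limma called 0 of the 10 genes and 0 of all entries (0%), while 4 of the 10 and 805 entries (5.12%) had an unadjusted p under 0.05. With array weights, in which limma gave mutant 1 a weight of 0.0329 against 1.47 to 2.76 for the others, 1 of the 10 was called, Mmp13, where 2.04% of entries were called, 0.719% higher and 1.32% lower. Without mutant 1 it was again Mmp13 alone, where 0.0446% of entries were called, 0.0127% higher and 0.0318% lower. These fits are not separate support, since the weights all but leave out mutant 1. The weighted fit still counts mutant 1 in its 4 residual degrees of freedom, against 3 without mutant 1. It called 320 entries, against 7, so calls made with array weights alone are less certain. Mutants and controls did not overlap in 4 of the 10 genes, Mmp13 and Mef2c being lower and Vegfa and Scin higher, against 20.9% of all entries, 11.9% lower and 8.98% higher. By sign, 7 of the 10 were above 0 and 3 below, where 45.8% of entries were above and 54.2% below. The median log2 change of the 10 genes was 0.12, against -0.046 over all entries. Since it turned to -0.026 without mutant 1, no common direction is read from it.

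Collagen X, the matrix collagen that defines hypertrophic cartilage, stood highest of the 10 genes in every library. Col10a1 was 429.5, 378 and 403 FPKM in mutants 1, 2 and 3, against 306, 407 and 436 FPKM in controls 1, 2 and 3. The mutants lay inside the range of the controls. The means were 403 ± 25.9 FPKM in mutants and 383 ± 68.0 FPKM in controls (SD, n = 3 each), and the log2 change was 0.088 (SE 0.15, limma adjusted p = 0.776). Its 95% confidence interval ran from -0.28 to 0.46. The sign turned when control 1, the lowest control, was left out (log2 change -0.065).

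Panx3, the pannexin channel of prehypertrophic chondrocytes and osteoblasts that lets ATP out of the cell, did not pass the test either. It was 64.7, 53.0 and 45.3 FPKM in the mutants and 55.8, 48.4 and 54.1 FPKM in the controls. The groups overlapped, with mutant 1 the highest and mutant 3 the lowest of the 6. Its log2 change was 0.029 (SE 0.16, 95% interval -0.36 to 0.42, limma adjusted p = 0.926), and without mutant 1 it was -0.10. Col10a1 was 6.64, 7.13 and 8.89 times as high as Panx3 in the mutants and 5.49, 8.42 and 8.06 times as high in the controls, so the relation of these early genes overlapped between the groups.

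Mef2c, a transcription factor that turns on Col10a1 and is held back by the deacetylase HDAC4, was the early gene with the lower values in mutants. It was 22.9, 29.8 and 30.0 FPKM in the mutants and 36.0, 35.7 and 37.9 FPKM in the controls. Every mutant lay below every control, mutant 1 lowest. The log2 change was -0.41 (SE 0.14, limma adjusted p = 0.695), it was -0.28 with array weights (SE 0.068, limma adjusted p = 0.0854), and it was not called in any alternative. Of markers of skeletal muscle, which makes Mef2c too, the 9 matched muscle genes summed to 3298 to 3862 FPKM in mutants and to 4270 to 5993 FPKM in controls, 7 of 9 were below 0 and none was listed at 0 in mutant 1. Without Mylpf, a myosin light chain, the other 8 overlapped, at 1518 to 2054 FPKM in mutants and 1992 to 2888 FPKM in controls. Markers of endothelium, which also makes Mef2c, went the other way: the 9 genes summed to 207 to 228 FPKM in mutants and 182 to 207 FPKM in controls, with 7 above 0. The part of muscle or endothelium in the Mef2c values was not tested. In bulk tissue fewer cells of a type and less RNA per cell cannot be told apart, for this gene and those that follow.

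Mmp13, the collagenase that cuts collagen II and aggrecan in terminal cartilage, was the only one of the 10 that passed the test in any fit. It was listed at 0 in mutant 1 and was 1.28 and 1.19 FPKM in mutants 2 and 3, against 27.0, 19.0 and 33.3 FPKM in the controls. All 3 mutants lay far below all 3 controls, and the lowest control was 14.9 times as high as the highest mutant. Mutants 2 and 3 averaged 4.66% of the control mean. Without mutant 1, whose 0 may not mean absence, the log2 change was -3.58 (SE 0.22, limma adjusted p = 0.00981), and with array weights it was -3.57 (SE 0.21, limma adjusted p = 0.00159). With equal weights and the 0 taken as listed it was -3.97 (SE 0.41, limma adjusted p = 0.437), with a pseudocount of 0.1 it was -5.52 (SE 1.11, limma adjusted p = 0.676), and over all alternatives the limma adjusted p ranged from 0.00159 to 0.872. With equal weights, with array weights and without mutant 1 the log2 change of Mmp13 was the lowest of the 15710 entries. The authors' deposited table gave Mmp13 a signed fold of -32.23, with a p-value of 8.97e-04 and a q-value of 0.214.

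The genes beside Mmp13 were looked at after its values were seen. In RefSeq order the closest protein-coding genes before it are Dcun1d5, Dync2h1, Ddi1 and Pdgfd, and those after it are Mmp12, Mmp1b, Mmp3 and Mmp1a. Dcun1d5, which helps to attach NEDD8 to cullins, was 58.3, 19.7 and 28.2 FPKM in the mutants and 25.0, 27.5 and 24.5 FPKM in the controls. Dync2h1, the motor chain of transport in cilia, was 2.66, 3.26 and 2.99 FPKM in the mutants and 2.98, 3.04 and 2.89 FPKM in the controls. For these genes the mutants were not all below the controls. Pdgfd was 15.7, 3.75 and 3.69 FPKM in the mutants and 4.35, 4.70 and 4.00 FPKM in the controls, so that only mutant 1 did not lie below them. The neighbouring matrix proteases were nearly silent in both groups: Mmp12 was 0, 0.170 and 1.31 FPKM in the mutants and 0.396, 0.430 and 0.00803 FPKM in the controls, Mmp3 was at most 0.688 FPKM in any library, and Mmp1a, Mmp1b and Ddi1 were listed at 0 in all 6.

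By the distance between profiles, 4 genes among 11187 with a mean of at least 5 FPKM lay closest to Mmp13. The distance is the root mean square difference over the 6 libraries of log2(FPKM + 1), each gene taken from its own control mean. Gpd1, an enzyme of glycerol phosphate synthesis, lay at 0.46, the keratin Krt13 at 0.83, Adipoq, the fat cell hormone adiponectin, at 0.88 and the keratin Krt4 at 1.10. All 4 were listed at 0 in mutant 1, as Mmp13 was, and in mutants 2 and 3 they were 1.73 to 11.8 FPKM, against 19.0 to 64.9 FPKM in the controls. The distance counts mutant 1, where a 0 may not mean absence, so this shared 0 adds to the likeness. Since the 4 were picked for this likeness, their low mutants and high controls follow from the choice. Gpd1, Adipoq and Krt4, with mutant means of 1.47, 3.53 and 4.04 FPKM, passed the filter only through their controls.

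Vegfa, the growth factor that draws vessels into hypertrophic cartilage, was higher in every mutant. It was 47.3, 50.4 and 39.0 FPKM in the mutants and 29.9, 35.5 and 33.1 FPKM in the controls. The groups did not overlap, mutant 3 lying nearest to the controls. The means were 45.6 ± 5.93 FPKM in mutants and 32.8 ± 2.83 FPKM in controls (SD, n = 3 each). The log2 change was 0.46 (SE 0.14, 95% interval 0.11 to 0.80, limma adjusted p = 0.695), and no alternative called it, the lowest adjusted p being 0.157 with array weights. Set to Col2a1, Vegfa overlapped between the groups, at 1.78%, 2.03% and 1.68% of Col2a1 FPKM in the mutants and 1.90%, 2.01% and 1.502% in the controls. Col2a1 was itself higher in every mutant. Set to it, 0.63% of all entries lay higher without overlap, against 8.98% in FPKM, so this overlap is not read as a result about Vegfa.

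Set against each other, the early genes stood further above the terminal pair in every mutant than in any control. Of that pair only Mmp13 was lower (log2 change -3.97), while Vegfa was higher (0.46), so the wider gap rests on Mmp13 alone. For Col10a1 minus Vegfa the difference between mutants and controls was -0.37 (log2), the other direction. Per library, the mean log2(FPKM + 1) of Col10a1, Panx3 and Mef2c minus that of Mmp13 and Vegfa was 3.66, 2.98 and 3.16 in the mutants and 1.56, 1.74 and 1.52 in the controls. The early mean was 6.46, 6.42 and 6.38 in the mutants and 6.43, 6.50 and 6.61 in the controls, and the terminal mean was 2.80, 3.44 and 3.22 in the mutants and 4.88, 4.76 and 5.10 in the controls. Mmp13 was listed at 0 in mutant 1 and was 0.339% and 0.295% of Col10a1 FPKM in mutants 2 and 3, against 8.81%, 4.67% and 7.64% in the controls. Vegfa was 11.01%, 13.4% and 9.68% of Col10a1 FPKM in the mutants, against 9.74%, 8.72% and 7.60% in the controls. These ratios are descriptions of chosen genes and carry no test.

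**Figure D2:**
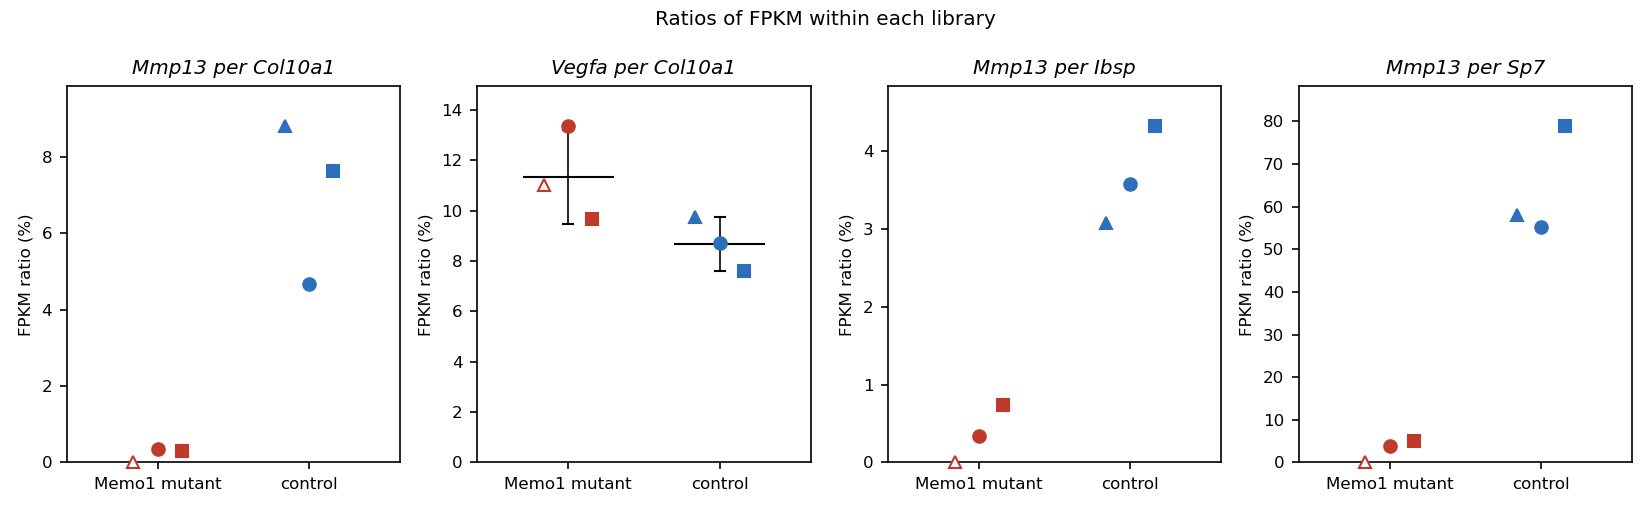
Ratio of FPKM within each library, in percent (vertical axes, linear, from 0): Mmp13 and Vegfa to Col10a1, and Mmp13 to the osteoblast genes Ibsp and Sp7, with mutants in red on the left, controls in blue on the right and mutant 1 as the open triangle; bars are the mean ± SD of 3 embryos and are left out where mutant 1 was listed at 0. Mmp13 lies below 1% of Col10a1 in the mutants and at 4.67% or more in the controls, while Vegfa to Col10a1 overlaps between the groups.

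Runx2, the master factor of bone and of hypertrophic cartilage, was 40.1, 26.3 and 20.3 FPKM in the mutants and 26.8, 25.3 and 22.2 FPKM in the controls. The groups overlapped, with mutant 1 highest and mutant 3 lowest. The log2 change was 0.17 (SE 0.26, limma adjusted p = 0.759) and turned to -0.090 without mutant 1. Runx3, which shares the work of Runx2 in mouse chondrocytes, was listed at 0 in mutant 1 and was 4.69 and 5.91 FPKM in mutants 2 and 3, against 5.39, 4.58 and 5.04 FPKM in the controls. Mutants 2 and 3 overlapped with the controls, and without mutant 1 the log2 change was 0.066 (SE 0.13, 95% interval -0.26 to 0.39, limma adjusted p = 0.836). Runx1, the third family member, was 4.42, 8.13 and 8.36 FPKM in the mutants and 7.83, 7.14 and 8.26 FPKM in the controls, and Cbfb, the partner subunit of all RUNX proteins, was 37.9, 28.9 and 41.6 FPKM in the mutants and 37.1, 37.0 and 33.7 FPKM in the controls.

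Mef2d, a relative of Mef2c, was 109.6, 48.5 and 36.5 FPKM in the mutants and 37.5, 39.2 and 46.9 FPKM in the controls. Only mutant 1 stood out, and the other 2 mutants spanned the controls. The log2 change of 0.49 (SE 0.41, limma adjusted p = 0.695) shrank to 0.039 without mutant 1. Hdac4, the deacetylase that restrains MEF2 proteins in chondrocytes, showed the same split: it was 22.6, 10.02 and 10.1 FPKM in the mutants and 11.8, 12.3 and 9.73 FPKM in the controls. Mef2a, the third MEF2 gene at a measurable level, was 13.0, 24.6 and 25.3 FPKM in the mutants and 24.3, 23.1 and 23.6 FPKM in the controls.

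Entpd1, the cell surface enzyme CD39 that breaks down ATP outside the cell, overlapped between the groups. It was 37.4, 18.7 and 21.8 FPKM in the mutants and 24.5, 23.0 and 19.4 FPKM in the controls. Mutant 1 was again the highest of the 6, and the log2 change of 0.16 (SE 0.27, limma adjusted p = 0.784) turned to -0.13 without it. Endothelium and leukocytes carry this enzyme as well, and the summed level of 9 endothelial markers was 207 to 228 FPKM in mutants and 182 to 207 FPKM in controls.

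Scin, a calcium-dependent protein of the gelsolin family that severs actin filaments, was higher in every mutant. It was 34.0, 24.9 and 34.5 FPKM in the mutants and 19.3, 15.7 and 20.7 FPKM in the controls. The groups did not overlap, mutant 2 lying nearest to the controls. The means were 31.1 ± 5.43 FPKM in mutants and 18.6 ± 2.57 FPKM in controls (SD, n = 3 each). The log2 change was 0.71 (SE 0.18, 95% interval 0.26 to 1.16, limma adjusted p = 0.695), with array weights it was 0.73 (SE 0.15, limma adjusted p = 0.0611), and no alternative called it. The summed level of the 13 matched cartilage markers was also higher, at 7401 to 8267 FPKM in mutants and 4938 to 6561 FPKM in controls, with all 13 above 0. The part of cartilage in the Scin values was not tested. Scin overlapped between the groups when set to Col2a1, at 1.28%, 1.002% and 1.49% of Col2a1 FPKM in the mutants and 1.23%, 0.890% and 0.937% in the controls. Since 0.63% of all entries lay higher without overlap when set to Col2a1, against 8.98% in FPKM, this is not read as a result about Scin.

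Set to Col2a1, Col10a1 was 16.1%, 15.2% and 17.4% in the mutants and 19.5%, 23.1% and 19.8% in the controls, without overlap. The same held in the lower direction for 32.6% of all entries (0.63% in the higher direction), which includes Panx3, Mef2c and Mmp13. At that share it is not read as a result about these genes.

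**Figure D3:**
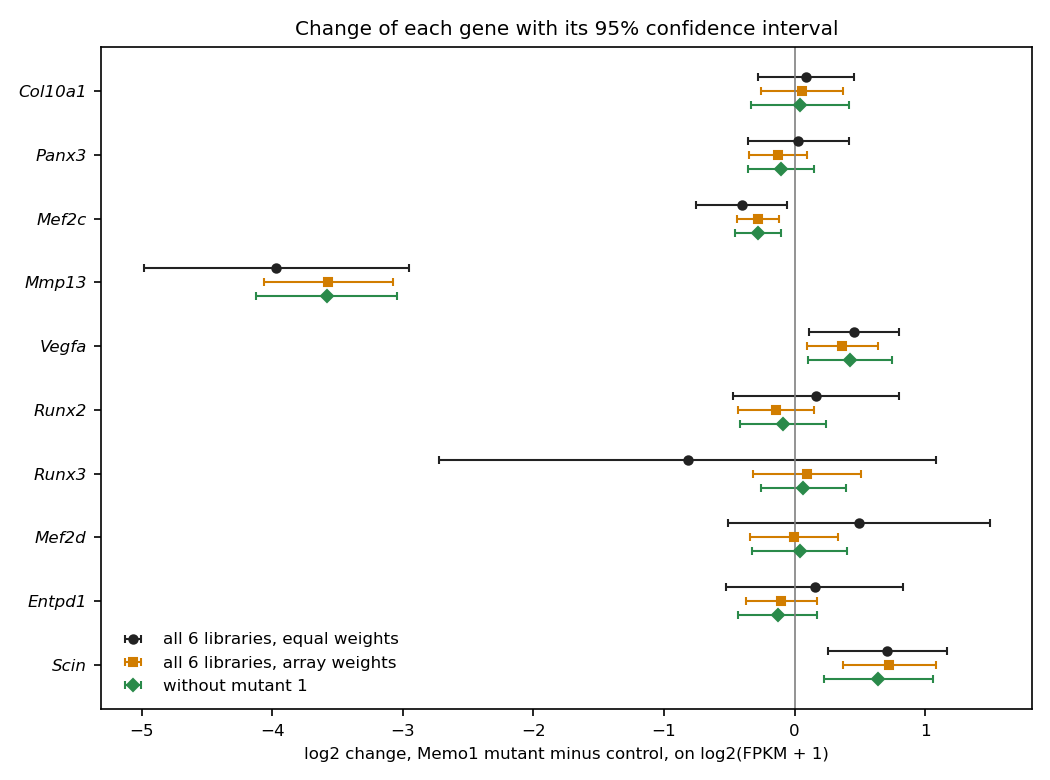
Change of each of the 10 genes, mutant minus control, on log2(FPKM + 1) (horizontal axis) with 95% confidence intervals, in 3 limma fits: all 6 libraries with equal weights (black circles), with array weights (orange squares) and without mutant 1 (green diamonds). Mmp13 lies between -3.97 and -3.57 in the 3 fits, Mef2c below 0 and Vegfa and Scin above 0, while the intervals of the other 6 genes cross 0.

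In the controls the levels ran from Col10a1 at 383 FPKM through Panx3 (52.8 FPKM), Mef2d (41.2 FPKM), Mef2c (36.6 FPKM), Vegfa (32.8 FPKM), Mmp13 (26.4 FPKM), Runx2 (24.8 FPKM), Entpd1 (22.3 FPKM) and Scin (18.6 FPKM) to Runx3 (5.002 FPKM). Neighbours in this order overlapped in their 3 values except for Col10a1 and Panx3, Panx3 and Mef2d, Mef2c and Vegfa, and Scin and Runx3. In the mutants Mmp13 was the lowest of the 10 in mutants 2 and 3 and tied with Runx3 at 0 in mutant 1, against the fifth to eighth place in single controls. Scin held the fifth or seventh place in single mutants and the eighth or ninth in single controls.

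Some embryos shared the first word of their title, a word the labels do not explain. The 4 genes without overlap must keep their directions there, since every mutant lay beyond every control. The values within a word therefore show only the size of the differences. Mutant 3 and controls 2 and 3 share a word. There Mmp13 was 1.19 FPKM in the mutant and 26.2 FPKM in the controls, Vegfa was 39.0 and 34.3 FPKM, Scin 34.5 and 18.2 FPKM and Mef2c 30.0 and 36.8 FPKM, mutant before controls each time. Mutant 1 and control 1 share another word, and mutant 2 has its own. Between mutant 1 and control 1 the log2 difference was 0.65 for Vegfa, 0.79 for Scin and -0.63 for Mef2c.

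Of 24 other effector genes of hypertrophy and mineralization 23 were tested, and 9 were above 0 and 14 below (median log2 change -0.14, against -0.046 over all entries). With equal weights limma called 0 of the 23, and 11 had an unadjusted p under 0.05, as did 5.12% of all entries. With array weights 6 fell and 1 rose, where 1.32% of all entries fell and 0.719% rose. Of these, the ones that fell were Mmp9, the gelatinase of osteoclasts, the bone matrix genes Spp1 and Dmp1, Alpl, the phosphatase of mineralization, Slc37a2, a transporter of macrophages and osteoclasts, and Anxa2, an annexin. Spp1 was 71.1, 101.8 and 111.2 FPKM in the mutants and 302, 273 and 385 FPKM in the controls (weighted log2 change -1.53, limma adjusted p = 0.00929). Alpl was 39.5, 76.2 and 53.3 FPKM in the mutants and 106.0, 94.2 and 99.5 FPKM in the controls (weighted log2 change -0.72, limma adjusted p = 0.0491). Every mutant lay below every control for both, as for 11.9% of all entries. Dmp1 was 3.26, 7.01 and 4.80 FPKM in the mutants and 14.6, 13.5 and 19.1 FPKM in the controls (weighted limma adjusted p = 0.0223). Anxa2 was 388, 399.6 and 432 FPKM in the mutants and 550.2, 515 and 550.03 FPKM in the controls (weighted limma adjusted p = 0.0441). Slc37a2 was listed at 0 in mutant 1 and was 0.972 and 1.04 FPKM in mutants 2 and 3, against 2.96, 2.22 and 2.85 FPKM in the controls (weighted limma adjusted p = 0.0450). Ibsp, bone sialoprotein, was 241, 383 and 161 FPKM in the mutants and 878, 531 and 771 FPKM in the controls, also without overlap, and was not called (weighted limma adjusted p = 0.0674).

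The gene that rose was Enpp1, the enzyme that makes pyrophosphate, the inhibitor of mineral that the phosphatase of Alpl removes. Enpp1 was 13.2, 13.9 and 13.9 FPKM in the mutants and 9.54, 9.48 and 9.94 FPKM in the controls (weighted log2 change 0.49, SE 0.080, limma adjusted p = 0.0355). Ihh, the hedgehog ligand that prehypertrophic chondrocytes release, was 29.1, 28.8 and 21.6 FPKM in the mutants and 14.96, 19.2 and 19.7 FPKM in the controls, without overlap and not called (weighted limma adjusted p = 0.202). Of all entries 8.98% lay higher without overlap. Without mutant 1 limma called none of the 23.

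**Figure D4:**
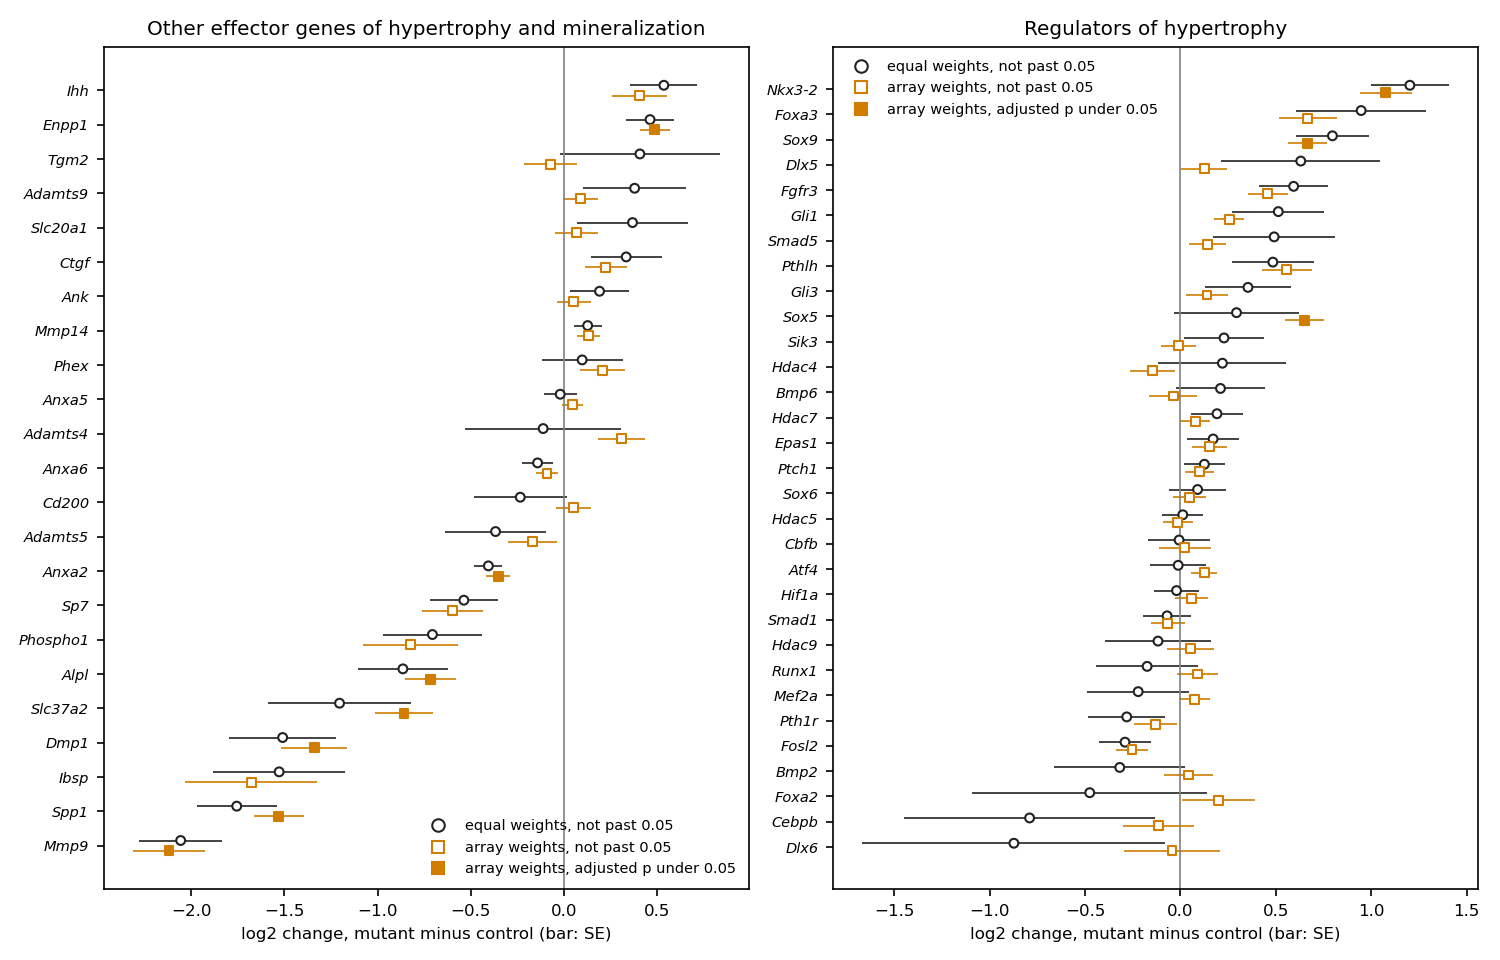
Change of 23 other effector genes (left) and 31 regulators (right) of hypertrophy, mutant minus control, on log2(FPKM + 1) with SE bars (horizontal axes); black circles are the fit with equal weights and orange squares that with array weights, filled where the limma adjusted p was under 0.05. No circle is filled, and among the effectors Mmp9, Spp1, Ibsp and Dmp1 lie below -1 in both fits. Some genes, Tgm2 and Hdac4 among them, cross 0 between the fits.

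Of 32 regulators of hypertrophy 31 were tested, and 18 were above 0 and 13 below (median log2 change 0.13, against -0.046 over all entries). With equal weights limma called 0, with 4 at an unadjusted p under 0.05, as were 5.12% of all entries. With array weights 3 rose and 0 fell, where 0.719% of all entries rose and 1.32% fell. The 3 were factors that hold chondrocytes before hypertrophy: Sox9, Sox5 and Nkx3-2. Sox9 also counts among the 13 cartilage markers, all above 0, of which Acan and Lect1 were called with array weights as well. Nkx3-2, a repressor of Runx2, was 16.5, 13.5 and 12.1 FPKM in the mutants and 4.55, 5.45 and 6.59 FPKM in the controls (weighted log2 change 1.08, limma adjusted p = 0.0223). Sox9 was 55.1, 34.7 and 41.9 FPKM in the mutants and 22.3, 26.0 and 25.0 FPKM in the controls (weighted log2 change 0.66, limma adjusted p = 0.0332). Sox5 was 7.01, 15.9 and 15.9 FPKM in the mutants and 10.6, 8.99 and 9.77 FPKM in the controls, with mutant 1 below every control and the other mutants above (weighted log2 change 0.65, limma adjusted p = 0.0346). Without mutant 1 limma called none of the 31. Fgfr3, a receptor that slows chondrocyte growth, and Foxa3, a forkhead factor of hypertrophic cells, lay above every control in every mutant. So did 8.98% of all entries. Fgfr3 was 91.4, 63.6 and 67.1 FPKM in the mutants and 42.7, 46.7 and 55.8 FPKM in the controls. Foxa3 was 13.6, 6.08 and 6.78 FPKM in the mutants and 3.86, 3.11 and 4.62 FPKM in the controls. Pthlh, the hormone-like signal that delays hypertrophy, was 5.94, 7.89 and 7.19 FPKM in the mutants and 4.00, 5.39 and 4.77 FPKM in the controls, a gene chosen after its values were seen.

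Partner families of single members came next. Of the 9 other genes of the VEGF system limma called 0 with equal weights (0 at an unadjusted p under 0.05) and 0 with array weights. Flt1, a VEGFA receptor, was 6.22, 7.84 and 6.04 FPKM in the mutants and 4.32, 5.35 and 5.002 FPKM in the controls, and Vegfc, a ligand of lymphatic vessels, was 9.92, 8.73 and 7.83 FPKM in the mutants and 5.10, 6.97 and 6.83 FPKM in the controls. The groups did not overlap for these genes, as for 20.9% of all entries in either direction. Nrp2, a co-receptor, was 37.5, 36.7 and 37.8 FPKM in the mutants and 43.4, 42.6 and 40.6 FPKM in the controls, also without overlap. Of 5 pannexins and connexins 0 were called in either fit (0 at an unadjusted p under 0.05 with equal weights), and all 5 overlapped. Panx1, the widespread pannexin, was 5.04, 38.2 and 34.0 FPKM in the mutants and 43.9, 37.8 and 27.8 FPKM in the controls. In the purine and pyrophosphate list limma called 0 of 13 with equal weights, with 3 at an unadjusted p under 0.05 (5.12% of all entries). With array weights Alpl fell and Enpp1 rose, where 2.04% of all entries were called. Without mutant 1 neither was called (limma adjusted p = 0.133 for Alpl and 0.0871 for Enpp1). Entpd2, another ATP-cleaving enzyme, was 13.2, 10.1 and 7.79 FPKM in the mutants and 7.01, 6.51 and 5.60 FPKM in the controls. Adora2a, an adenosine receptor, was 7.14, 4.58 and 3.98 FPKM in the mutants and 2.60, 3.31 and 2.60 FPKM in the controls, without overlap.

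Scin belongs to the gelsolin family. Of 7 other gelsolin family genes 0 were called in either fit, with 1 at an unadjusted p under 0.05 (5.12% of all entries). Gsn, gelsolin itself, was 109.1, 164 and 136 FPKM in the mutants and 177, 176 and 183 FPKM in the controls, and Capg, a capping protein of macrophages, was 7.97, 21.0 and 21.3 FPKM in the mutants and 30.7, 24.0 and 28.4 FPKM in the controls. Both lay below every control in every mutant, as did 11.9% of all entries. Among 8 tested collagenases, gelatinases and TIMP inhibitors besides Mmp13 limma called 0 with equal weights. Of these 3 had an unadjusted p under 0.05 (5.12% of all entries), and Mmp9 alone fell with array weights (1.32% of all entries). Without mutant 1 Mmp9 was not called (limma adjusted p = 0.0507). Timp3, an inhibitor bound to the matrix, was 60.8, 56.2 and 70.2 FPKM in the mutants and 49.9, 54.7 and 48.8 FPKM in the controls, without overlap. Mmp9 was 5.60, 5.93 and 4.40 FPKM in the mutants and 26.0, 19.4 and 31.3 FPKM in the controls (weighted log2 change -2.12, limma adjusted p = 0.0103). Mmp14, the membrane protease that activates MMP13 and MMP2, was 181, 177 and 182 FPKM in the mutants and 159, 163 and 172 FPKM in the controls, and Mmp2, gelatinase A, was 220.3, 199 and 201 FPKM in the mutants and 168, 174 and 182 FPKM in the controls.

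Summed markers of bone cells were lower in the same libraries. The 14 osteoblast genes summed to 1716 to 2348 FPKM in mutants and to 2869 to 4051 FPKM in controls. Of 13 tested, 11 were below 0, as were 54.2% of all entries. With equal weights limma called 0, with 7 at an unadjusted p under 0.05 (5.12% of all entries). With array weights 3 were called lower, Alpl, Spp1 and Dmp1 (1.32% of all entries). Without mutant 1 these genes were not called. Bglap, osteocalcin, was listed at 0 in mutants 1 and 3 and was 6.12 FPKM in mutant 2, against 3.89, 2.78 and 4.78 FPKM in the controls. Sp7, the osteoblast factor osterix, was 27.7, 33.2 and 23.3 FPKM in the mutants and 46.5, 34.4 and 42.3 FPKM in the controls. The 10 osteoclast genes summed to 45.3 to 60.8 FPKM in mutants and to 98.5 to 135 FPKM in controls, with Dcstamp at 0 in mutants 1 and 3 and Ocstamp at 0 in mutant 1. With array weights limma called 3 of their 5 tested genes lower (1.32% of all entries), Mmp9, Acp5 and Ctsk. With equal weights it called 0, with 3 at an unadjusted p under 0.05 (5.12% of all entries). Without mutant 1 none of the 3 was called, the limma adjusted p being 0.0507 for Mmp9, 0.0511 for Acp5 and 0.0957 for Ctsk. Acp5, the acid phosphatase of osteoclasts, was 7.26, 4.30 and 3.30 FPKM in the mutants and 19.9, 12.6 and 18.05 FPKM in the controls. The part of either cell type in the Mmp13 values was not tested.

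Set to bone genes of the same library, Mmp13 was lower in every mutant than in any control. In mutants 2 and 3 Mmp13 was 3.85% and 5.10% of Sp7 FPKM, against 58.0%, 55.2% and 78.8% in the controls. It was 0.334% and 0.737% of Ibsp FPKM in mutants 2 and 3, against 3.08%, 3.58% and 4.32% in the controls. Against Spp1 it was 1.26% and 1.07% in mutants 2 and 3, against 8.95%, 6.96% and 8.65% in the controls. In mutant 1 Mmp13 was listed at 0. Mmp13 differed more between the groups than these bone genes did, so the order of the ratios follows from the values already given. These ratios were chosen after the values were seen and carry no test, and no share over all entries was computed.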

How the data were processed

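RNA of 6 embryos was measured by sequencing. The deposited values are FPKM. Per the submitters' processing notes the authors ran Cufflinks (version not named) against mm9. The file headers name no unit, so FPKM was inferred from this tool and the values. The sources used here name no aligner, annotation or filter. The authors' deposited p-value comes from a test that is not given, and their deposited fold is a signed score. The deposited q-value column was read as an unsigned score, since it holds 99 as a code. Entries with the code 999999999 in any library (15) were left out.

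Tests used limma 3.58.1 in R 4.3.3 (lmFit, then eBayes with trend and robust estimates) on log2(FPKM + 1), two-sided, for genotype, with Benjamini-Hochberg adjustment over 15710 entries with a mean of at least 1 FPKM. Low genes change less on this scale than in FPKM. Array weights are those of limma, and the random effect from duplicateCorrelation with statmod 1.5.0. The fit was also run on simulated data with normal spread in each library. That run did not model the loss of low values in mutant 1, and nothing is drawn from it here. Alternatives changed the pseudocount, filter, weights, scaling, variance model, title word (as a random effect and as a fixed block) and libraries. Ratios to other genes are of FPKM within a library. Depth was read where at least 100 genes below 0.1 FPKM in control 1 had ratios within 2% of 1 value.

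The 10 genes and all lists were chosen with earlier results of these data known. Named genes were the 10, list genes called in either fit, up to 4 per functional list with the smallest p and at least 2 FPKM in a group (of these and of the called marker genes not all are printed), and, for genes with a log2 change of at least 1 in size, the 4 nearest profiles. Pthlh, Tgm2, Runx1, Cbfb, Hdac4, Mef2a, Ihh, Ibsp, Sp7, Bglap, Mmp14, Dcstamp, Ocstamp, Col2a1 and the neighbours of Mmp13 were named outside this rule. Promoter sequences are from RefSeq, GRCm38.p6, and were not compared with mm9 coordinates. Replicate numbers follow accession order and pair nothing. The labels do not say whether embryos shared a litter, so p-values measure the spread between these embryos.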

Additional observations from a re-analysis of the deposited data

How the results depend on the processing

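Over the alternatives, 8 for the calculation and 6 that left out 1 embryo each, Mmp13 and Mef2c stayed below 0 and Vegfa and Scin above 0. The groups of these genes did not overlap, so leaving out 1 embryo, other weights or another pseudocount could not turn these signs. Of the 10, only Mmp13 was called in any of them. Array weights called 320 of all genes and 1 of the 10, and quantile normalization called 1 gene and 0 of the 10. Leaving out 1 embryo called 0 to 7 genes and 0 to 1 of the 10, the highest counts without mutant 1. The log2 change of Mmp13 was -3.57 with array weights and -5.52 with a pseudocount of 0.1, against -3.97, and with 1 embryo left out it ran from -4.18 to -3.58. The following signs turned. With array weights the log2 change was -0.0014 for Mef2d, -0.14 for Runx2, 0.093 for Runx3, -0.13 for Panx3 and -0.10 for Entpd1, and with quantile normalization it was -0.056 for Panx3. With 1 embryo left out it ran from -0.065 to 0.19 for Col10a1, from -0.090 to 0.38 for Runx2, from -1.33 to 0.066 for Runx3, from -0.10 to 0.15 for Panx3 and from -0.13 to 0.35 for Entpd1. The early minus terminal difference, 1.66 (log2) between mutants and controls, was 2.43 with a pseudocount of 0.1, which adds weight to low values of Mmp13, and 1.47 to 1.80 with 1 embryo left out. Runx3 lies below a mean of 5 FPKM and has no value under that filter. The replicate numbers follow accession order and pair nothing. With the title word as a random effect limma called 0 genes. With the title word as a fixed block, chosen after seeing the data, limma again called 0 genes and 0 of the 10 on 2 residual degrees of freedom, with 611 genes at an unadjusted p under 0.05. There mutant 2, alone in its word, adds nothing to the comparison, Panx3 turned to -0.0081 and Mmp13 was -4.11 (SE 0.48, adjusted p = 0.598). The 0 of Mmp13 and Runx3 in mutant 1 limits both values, and n = 3 allows no exact permutation p below 0.1.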
